A study of Mus musculus with 10 samples.

Results

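DNA replication in S phase draws on a fixed set of machinery genes, and 50 of them were examined in mouse lungs after increased pulmonary blood flow (IncPBF). The 50 are the rows of the deposited gene table whose symbols are on a list of replication and S-phase genes, out of 54532 genes in the table, and all 50 were found. By textbook role the genes fall into 9 groups, which are the MCM helicase and its partners, origin licensing, the sliding clamp and its loader, the polymerases and primase, Okazaki fragment joining with single-strand binding, deoxynucleotide supply, checkpoint and repair, the E2F factors with cyclin E, and the upkeep of DNA methylation.

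Wild-type C57/BL6 pups, male or female, were operated on at P7, and bulk RNA of the lung was sequenced at P14. In the IncPBF group (5 lungs) a needle passed from the abdominal aorta into the inferior vena cava left a fistula, which shunts arterial blood to the right heart and the lung. The sham group (5 lungs) had the same laparotomy without the puncture. Levels are FPKM, fragments scaled for the length of the gene and the size of the library. Comparisons of level between genes depend on the length given for each gene. Each lung had 16103423 to 20318525 fragments on genes.

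A cell that commits to division loads the MCM helicase onto its origins in G1, when CDC6, CDT1 and the ORC complex are active. Cyclin E and the E2F transcription factors then turn on the genes of S phase, in which primase and the polymerases copy the DNA that the helicase opens, held in place by the PCNA clamp. Cell division is frequent in the lung while alveoli form and becomes rare in the adult organ. Bulk RNA adds up all cells, so a larger share of cells in S phase cannot be told apart from more RNA of these genes per cell.

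The 2 groups also differ in sex-linked RNA. Xist, the RNA that coats the inactive X of female cells, was at 52.4 to 66.5 FPKM in IncPBF lungs 2 to 5, at 0.0144 FPKM in IncPBF lung 1 and at 0.00640 to 0.0770 FPKM in the sham lungs. Ddx3y, a Y-linked gene, ran the other way, with 18.6 FPKM in IncPBF lung 1, 21.8 to 24.6 FPKM in the sham lungs and at most 0.00926 FPKM in the other IncPBF lungs. IncPBF lung 1 is therefore the only lung of its group that shares the sham lungs' sex-linked pattern, and its own values are given beside the group results. In lungs 2 to 5, surgery and sex-linked RNA cannot be told apart.

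The replication genes stood higher in IncPBF lungs as a body. Genes with a mean of at least 0.5 FPKM over the 10 lungs were tested (15388 genes, 48 of the 50 replication genes) on log2(FPKM + 0.1), a scale that understates the change of low genes. At a Benjamini-Hochberg adjusted p under 0.05 in limma, 40 of the 48 were higher in IncPBF, against 16.1% of all genes tested (83.3% of the 48). Lower was 1 gene, E2f2, where 16.2% of all genes tested were lower. The remaining 7, Pola2, Pole2, Prim2, Pold1, Blm, Brca2 and Dnmt1, did not pass. The median log2 fold change of the 48 was 0.59, where that of all genes tested was 0.01, and 47 of the 48 had a positive value, against 52.1% of all genes.

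The groups were separated as well as shifted. In 35 of the 48 genes every IncPBF lung was above every sham lung, which held for 12% of all genes tested. No replication gene was lower in every IncPBF lung, a pattern of 11.2% of all genes. By the ratio of group means 26 of the 48 were at least 1.5-fold higher in IncPBF and 7 at least 2-fold, all 7 among the genes called higher, and none was lower by 1.5-fold. The filter passed 2 of the 48, Mcm10 and Orc1, with sham means under 0.5 FPKM, so these passed through their IncPBF level, and the counts above include them. The other 46 had means of at least 0.5 FPKM in both groups. When each lung was left out in turn, 35 of the 40 genes kept an adjusted p under 0.05 in all 10 limma fits. The others were Pola1, which lost its call in 8 of the 10, Rfc4, Pole and Rad51ap1, which did so in 7, and E2f7, which did so in 5.

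IncPBF lung 1 lay above all 5 sham lungs in 40 of the 48 genes, against 26.4% of all genes tested, and below them in 1, Pold1, against 25.4%. With log2 Xist FPKM as a covariate in limma, 5 of the 48 stayed past the adjusted threshold, against 2.13% of all genes, and none was lower, against 2.68%. An unadjusted p under 0.05 was reached by 25, all higher, against 10.1% of all genes. The 5 were Mcm2, Gins1, Rrm1, E2f1 and Uhrf1. In that fit 45 of the 48 log2 fold changes were positive, against 52.2% of all genes, with a median of 0.49. Xist was near 0 in the sham lungs and IncPBF lung 1 alone. The group difference left beside this covariate, that of the 5 genes included, therefore rests mainly on IncPBF lung 1. With IncPBF lung 1 alone against the sham lungs the median was 0.51 and again 45 were positive, against 52.3% of all genes. None of the 48 passed the adjusted threshold in limma in that fit, where 0.273% of all genes were higher and 0.728% lower, while 23 reached an unadjusted p under 0.05, all higher, against 7.67% of all genes. That fit takes the spread of the lone lung to be that of the sham lungs.

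**Figure D1:**
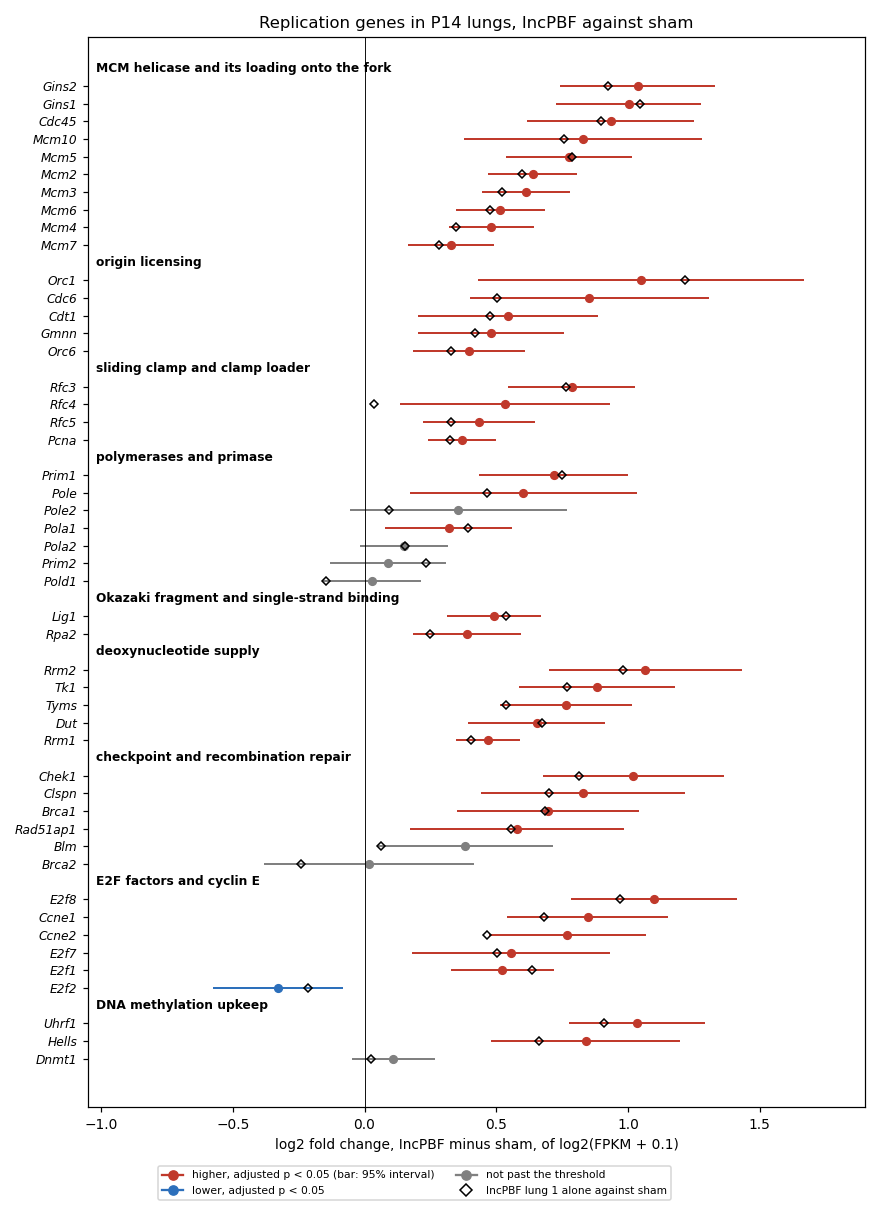
Log2 fold change of each of the 48 replication genes tested (IncPBF minus sham, log2(FPKM + 0.1), n = 5 lungs a group), with its 95% interval from limma, grouped by role. Diamonds give IncPBF lung 1 alone against the 5 sham lungs. Of the 48 points 47 lie to the right of 0, and E2f2 is the exception.

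Promoter sequences of 6 replication genes are shown because the E2F factors that drive S-phase genes bind a short motif near the start of transcription. The 6 have the smallest p in their role groups. They are RefSeq sequences on GRCm38.p6, the 250 bases before the transcription start, printed 5′ to 3′ on the strand of the gene. Capitals mark a match to the E2F core of 7 letters on either strand. Its spellings were TTCCCGC, with 12 matches in all replication genes, TTGGCGC with 7 matches, TTCGCGC with 6 matches and TTGCCGC with 2 matches. Rfc3, Uhrf1 and Rrm1 have the core within 100 bases of the start.
Uhrf1 (chr17:56303087-56303336, plus strand): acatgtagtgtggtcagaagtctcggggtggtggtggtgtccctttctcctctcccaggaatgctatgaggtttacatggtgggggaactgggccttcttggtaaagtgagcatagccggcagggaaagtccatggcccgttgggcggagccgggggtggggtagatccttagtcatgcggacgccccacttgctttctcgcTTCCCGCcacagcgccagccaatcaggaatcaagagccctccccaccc
Rrm1 (chr7:102441445-102441694, plus strand): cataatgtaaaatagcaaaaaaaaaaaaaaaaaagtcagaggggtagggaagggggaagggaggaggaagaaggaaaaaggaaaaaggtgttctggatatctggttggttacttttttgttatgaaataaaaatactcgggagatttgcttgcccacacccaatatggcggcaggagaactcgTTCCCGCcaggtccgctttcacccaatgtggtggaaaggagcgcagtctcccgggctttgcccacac
E2f8 (chr7:48881597-48881846, minus strand): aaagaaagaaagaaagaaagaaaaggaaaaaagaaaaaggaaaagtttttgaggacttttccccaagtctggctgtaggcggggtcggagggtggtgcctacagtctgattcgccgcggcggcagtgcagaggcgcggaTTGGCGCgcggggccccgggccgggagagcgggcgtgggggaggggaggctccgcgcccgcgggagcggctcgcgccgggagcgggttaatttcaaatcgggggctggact
Rfc3 (chr5:151651209-151651458, minus strand): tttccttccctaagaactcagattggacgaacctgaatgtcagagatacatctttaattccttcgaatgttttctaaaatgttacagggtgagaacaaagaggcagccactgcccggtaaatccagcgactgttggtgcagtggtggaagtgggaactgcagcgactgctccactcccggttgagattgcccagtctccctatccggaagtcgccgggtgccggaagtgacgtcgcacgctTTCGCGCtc
Mcm2 (chr6:88898781-88899030, minus strand): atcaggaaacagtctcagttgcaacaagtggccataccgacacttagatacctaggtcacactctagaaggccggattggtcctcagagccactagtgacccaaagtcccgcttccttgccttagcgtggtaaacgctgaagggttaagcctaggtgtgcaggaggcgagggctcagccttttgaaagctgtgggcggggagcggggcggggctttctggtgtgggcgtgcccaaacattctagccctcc
Chek1 (chr9:36726659-36726908, minus strand): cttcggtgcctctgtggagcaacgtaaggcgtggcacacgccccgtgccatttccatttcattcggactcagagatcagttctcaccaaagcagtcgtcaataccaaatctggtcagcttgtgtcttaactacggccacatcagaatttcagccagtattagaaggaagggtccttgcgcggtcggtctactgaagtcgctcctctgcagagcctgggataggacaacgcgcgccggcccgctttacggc
The core ends 41 bases before the start in Uhrf1, 60 in Rrm1, 104 in E2f8 and 2 in Rfc3. Mcm2 and Chek1 hold none of the 4 spellings in this window. The last 16 bases of the Uhrf1 window and the last 34 of the Rfc3 window lie inside the gene as the deposited table places it, and the Chek1 start lies 407 bases inside it.

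Among all replication genes, 42 had a promoter window in RefSeq, and 17 of them (40.5%) held the E2F core. Of the promoters of all genes tested, 13.9% held it (1489 of 10721), and of all 20477 promoters 9.40%. A stricter form with 1 more T in front was in 10 of the 42 (23.8%), against 3.37% of the promoters of genes tested. The 42 windows held 27 core matches, 24 once overlapping ones are merged, and 12 of the 27 lay within 100 bases of the start. Mcm6 had 4 matches, Mcm5, E2f7 and Pola1 had 3 each, and Hells had 2.

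The CCAAT box, which NF-Y binds, was in 25 of the 42 (59.5%), against 35.9% of the promoters of genes tested. In E2f8 and Prim1 a core match overlaps a CCAAT match. The CHR element of late cell cycle genes (TTTGAA or TTCGAA) was in 7 of the 42 (16.7%), against 12.2% of the promoters of genes tested. Of all 20477 promoters 16.6% held it, a share like that of the 42. In 13 promoters of mitosis genes CCAAT was in 12, CHR in 7 and the E2F core in 3. These are matches of letters in a window, and binding was not measured. The spellings were chosen after the windows were seen.

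**Figure D2:**
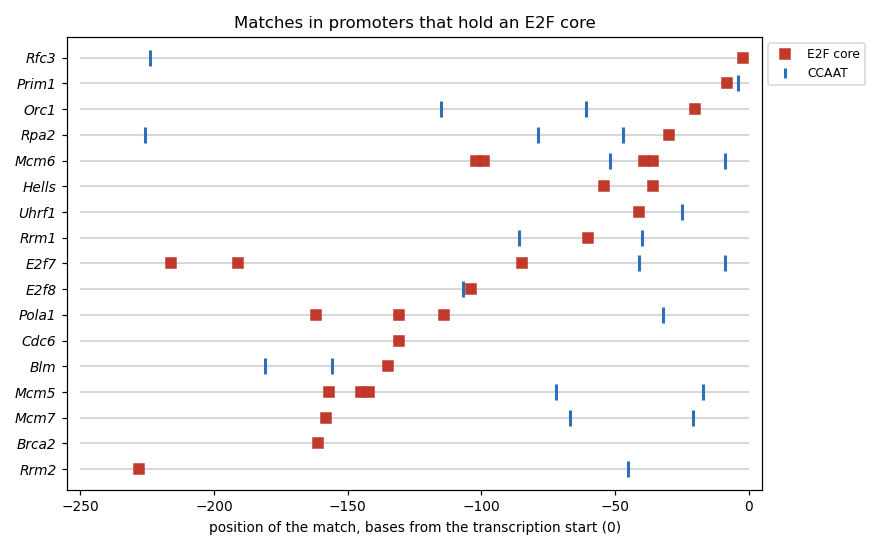
Position of each E2F core match (squares) and CCAAT match (ticks) in the 17 replication gene promoters that hold the core, in bases from the transcription start at 0, each match placed at its end nearest the start. The core of Rfc3 lies nearest to the start at 2 bases, and 12 of the 27 core matches lie within 100 bases.

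The MCM helicase unwinds the DNA ahead of the polymerases. Of its 10 genes, 10 were higher in IncPBF lungs, without overlap between the groups in any, and with a median log2 fold change of 0.71. Mcm10 is among the 10 and passed the filter through its IncPBF level. Of all genes tested 16.1% were higher, 16.2% lower and 12% higher without overlap, shares that stand beside each role group. Mcm2 (ENSMUSG00000002870, chr6:88883474-88898780), a helicase subunit, was at 6.31, 6.22, 7.50, 6.29 and 6.18 FPKM in IncPBF lungs 1 to 5 and at 3.66, 4.02, 4.54, 4.27 and 4.20 FPKM in sham lungs 1 to 5. Every IncPBF lung was higher, and IncPBF lung 3 stood apart from the other 4, which lay close together. Its log2 fold change was 0.64 ± 0.08 (SE), with an adjusted p of 0.000138 in limma.

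Mcm3, another subunit of the ring, was at 13.6, 14.2, 16.6, 14.5 and 13.8 FPKM in IncPBF lungs and at 8.36, 9.03, 10.3, 10.2 and 9.35 FPKM in sham lungs. Again all 5 IncPBF lungs lay above the sham lungs and lung 3 was the highest. The log2 fold change was 0.61 ± 0.07 (SE, adjusted p = 0.000167, limma). Mcm4, the most abundant of the 10 on average with Mcm3 close by, was at 13.0, 14.6, 15.4, 13.9 and 14.6 FPKM against 10.3, 8.65, 10.7, 10.9 and 10.5 FPKM. Here sham lung 2 was the low one, and the log2 fold change was 0.48 ± 0.07 (SE, adjusted p = 0.000623, limma).

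Mcm5, Mcm6 and Mcm7 complete the ring of 6, with log2 fold changes of 0.78, 0.52 and 0.33. Mcm7 had the smallest of these and went from 8.03 ± 0.645 FPKM in sham to 10.1 ± 0.861 FPKM in IncPBF (SD, n = 5, adjusted p = 0.00567 in limma). Mcm7 overlaps Ap4m1 and Cops6 on the other strand and the microRNAs Mir25, Mir93 and Mir106b on its own, and the library was not stated to keep strand. The partners that turn the ring into an active helicase had larger fold changes than the ring itself. CDC45 and the GINS complex join MCM at the origin. Gins1 went from 1.31 ± 0.131 to 2.75 ± 0.454 FPKM, a 2.10-fold ratio of means, and Gins2 from 0.779 ± 0.129 to 1.69 ± 0.148 FPKM, a ratio of 2.17. The whole span of Gins2 (10672 bases) lies within the protein-coding gene Gm20388 on the other strand. Cdc45 had a log2 fold change of 0.93 and Mcm10, which helps to activate the helicase, one of 0.83. The difference between ring and partners was not tested. Levels went the other way, with ring subunits between 4.14 and 10.2 FPKM in sham and these partners at most at 1.31 FPKM.

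Origin licensing genes prepare the origins before S phase, and 5 of 5 were higher without overlap, with a median log2 fold change of 0.54. Orc1 is among the 5 and passed the filter through its IncPBF level. Orc6, a subunit of the origin recognition complex and the most abundant of the 5, was at 8.84, 9.36, 9.69, 9.27 and 9.28 FPKM in IncPBF lungs and at 6.61, 6.34, 8.31, 8.28 and 5.93 FPKM in sham lungs. The IncPBF lungs kept close to each other, while sham lungs 3 and 4 came near them. The log2 fold change was 0.40 ± 0.09 (SE, adjusted p = 0.00861, limma). Orc6 shares 171 bases with Vps35 on the other strand.

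Cdc6, which loads MCM together with Cdt1, was at 0.900, 1.22, 1.51, 1.41 and 0.949 FPKM in IncPBF lungs and at 0.448, 0.497, 0.772, 0.800 and 0.582 FPKM in sham lungs. Its lowest IncPBF lung, lung 1, was just above sham lung 4. The log2 fold change was 0.85 ± 0.20 (SE, adjusted p = 0.00883, limma), and 0.50 for IncPBF lung 1 alone. Cdt1 had a log2 fold change of 0.54 and its inhibitor geminin (Gmnn) one of 0.48, so licensing factor and inhibitor were both higher. The whole span of Cdt1 (5540 bases) lies within Gm20388, a protein-coding gene on the same strand. How the counting split these shared bases was not given. Orc1 had the lowest counts of the 48 genes tested, with 10 fragments in its lowest lung, and went from 0.377 ± 0.160 to 0.846 ± 0.155 FPKM (SD, n = 5), with a log2 fold change of 1.05 and a wide 95% interval of 0.43 to 1.66.

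The sliding clamp PCNA rings the DNA and holds the polymerase, and the RFC complex puts it there. Pcna was the most abundant replication gene, at 38.7, 40.9, 41.5, 40.5 and 38.4 FPKM in IncPBF lungs and at 29.3, 30.3, 31.1, 35.0 and 29.1 FPKM in sham lungs. All IncPBF lungs were higher, and sham lung 4 came closest. The log2 fold change was modest at 0.37 ± 0.06 (SE, adjusted p = 0.000748, limma).

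Rfc3, a clamp loader subunit, was at 4.48, 4.18, 4.92, 4.65 and 4.59 FPKM in IncPBF lungs and at 2.24, 2.45, 3.25, 2.98 and 2.23 FPKM in sham lungs, with a log2 fold change of 0.79 ± 0.11 (SE, adjusted p = 0.000373, limma). Rfc5 had 0.43 (adjusted p = 0.00545, limma). Rfc4 also passed the threshold, with a log2 fold change of 0.53 (adjusted p = 0.0418, limma), but IncPBF lung 1 was at 2.87 FPKM, inside the sham range of 2.06 to 3.92 FPKM, while the other 4 were at 4.27 to 4.80 FPKM. Without IncPBF lung 1 the Rfc4 value was 0.66, and for IncPBF lung 1 alone it was 0.04. With the Xist covariate it was 0.00. Of the 40 genes called higher, Rfc4 and Rpa2 were those with IncPBF lung 1 inside the sham range.

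Of the 7 polymerase and primase genes 3 were called, the lowest share of the 9 groups (42.9%), and their median log2 fold change was 0.32. Prim1, the catalytic subunit of primase, was at 2.79, 2.73, 3.06, 2.86 and 2.29 FPKM in IncPBF lungs and at 1.33, 1.34, 1.94, 1.89 and 1.72 FPKM in sham lungs. The groups did not overlap, and the log2 fold change was 0.72 ± 0.13 (SE, adjusted p = 0.0017, limma). Prim2, its large partner subunit, was at 1.68 ± 0.132 FPKM in IncPBF and 1.58 ± 0.160 FPKM in sham (SD, n = 5), with a log2 fold change of 0.09 and a 95% interval of -0.13 to 0.31.

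Pole, the leading strand polymerase, was at 0.978, 1.20, 1.33, 1.24 and 0.768 FPKM in IncPBF lungs and at 0.739, 0.490, 0.909, 0.609 and 0.715 FPKM in sham lungs. IncPBF lung 5 was below sham lung 3, so the groups overlapped, and the log2 fold change was 0.60 ± 0.19 (SE, adjusted p = 0.0348, limma). Pola1, the catalytic subunit of the polymerase that starts each strand, lies on the X chromosome. It was at 1.80 to 1.98 FPKM in IncPBF and 1.23 to 1.74 FPKM in sham lungs, with the highest value in IncPBF lung 1, and its log2 fold change was 0.32 (adjusted p = 0.0422, limma).

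Pola2, the second subunit of that polymerase, was the most abundant of this group, at 7.60, 7.32, 9.22, 6.96 and 7.04 FPKM in IncPBF lungs and at 6.71, 6.84, 6.73, 7.03 and 6.82 FPKM in sham lungs. Sham lungs varied little, IncPBF lung 3 stood apart, and IncPBF lung 4 lay within the sham range. The log2 fold change was 0.15, with a 95% interval of -0.01 to 0.31 (adjusted p = 0.144, limma). Pold1, the catalytic subunit of the lagging strand polymerase, was at 4.95 ± 0.645 FPKM in IncPBF and 4.83 ± 0.202 FPKM in sham (SD, n = 5), a log2 fold change of 0.03 with a 95% interval of -0.16 to 0.21. Its IncPBF lung 1, at 4.35 FPKM, was below all sham lungs. Pole2 had a log2 fold change of 0.36 with a 95% interval of -0.05 to 0.76 (adjusted p = 0.167, limma).

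Lig1, the ligase that seals Okazaki fragments, was at 7.67, 7.13, 8.12, 7.67 and 6.69 FPKM in IncPBF lungs and at 5.44, 4.92, 6.11, 4.72 and 5.22 FPKM in sham lungs. The groups did not overlap, and the log2 fold change was 0.49 ± 0.08 (SE, adjusted p = 0.000978, limma). Rpa2, a subunit of the protein that coats single-stranded DNA, stood 0.39 higher in log2 fold change (adjusted p = 0.00806, limma), with IncPBF lung 1 at 5.44 FPKM just under the highest sham lung at 5.45 FPKM. Fen1, the nuclease that trims the fragments, was below the filter with 0.378 ± 0.132 FPKM in IncPBF and 0.327 ± 0.0517 FPKM in sham (SD, n = 5, two-sided exact permutation p = 0.508). The table's Fen1 shares 3253 bases with Gm10143 and 156 with Tmem258, both on the other strand. Gm10143 was at 0.0911 FPKM in IncPBF and 0.0456 FPKM in sham, unlike Tmem258, which was at 19.0 FPKM in IncPBF and 15.7 FPKM in sham. How the counting split the shared bases was not given in the sources used here, so the low Fen1 level is uncertain.

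Deoxynucleotide supply limits how fast DNA can be copied, and 5 of 5 genes were higher, all without overlap, with a median log2 fold change of 0.77. Rrm2 is the S-phase subunit of ribonucleotide reductase, which makes deoxynucleotides from ribonucleotides. It was at 11.3, 11.2, 14.8, 12.8 and 10.2 FPKM in IncPBF lungs and at 5.21, 4.18, 8.32, 6.32 and 5.06 FPKM in sham lungs. Lung 3 was the highest of each group, and the log2 fold change was 1.07 ± 0.17 (SE, adjusted p = 0.000789, limma), a 2.07-fold ratio of means.

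Rrm1, the large subunit of the same enzyme, is present throughout the cell cycle. It was at 5.43, 5.52, 6.20, 5.72 and 5.55 FPKM in IncPBF lungs and at 4.04, 4.03, 4.12, 4.17 and 4.03 FPKM in sham lungs, so the sham lungs were almost level. The log2 fold change was 0.47 ± 0.05 (SE, adjusted p = 0.000117, limma). Tyms, which makes thymidylate, was at 2.06, 2.42, 2.73, 2.72 and 2.28 FPKM against 1.14, 1.46, 1.50, 1.54 and 1.32 FPKM. IncPBF lung 1 was the lowest of its group and still above all sham lungs, and the log2 fold change was 0.77 ± 0.11 (SE, adjusted p = 0.000557, limma). Thymidine kinase (Tk1), which salvages thymidine, and dUTPase (Dut), which keeps uracil out of DNA, had log2 fold changes of 0.88 and 0.65. The whole span of Tk1 (10567 bases) lies within the protein-coding gene Gm20708 on the other strand.

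**Figure D3:**
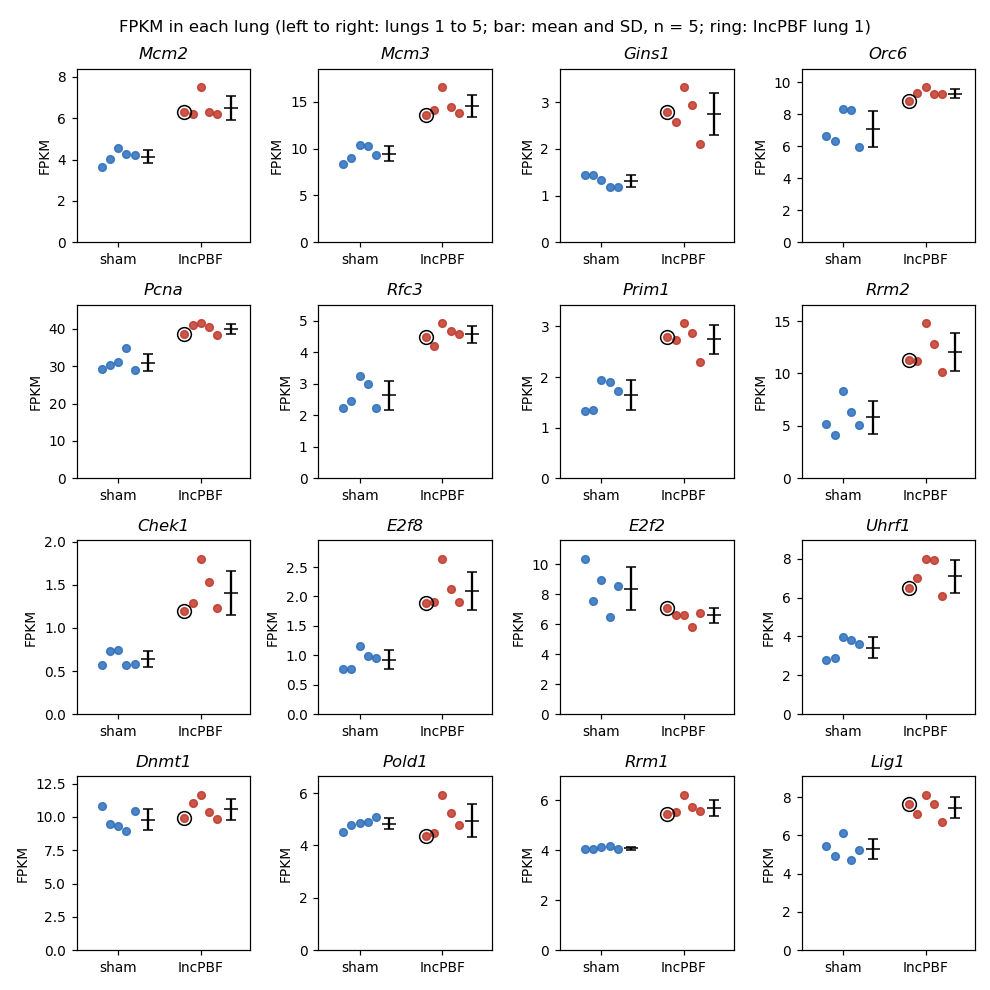
FPKM in each of the 10 lungs for 16 of the replication genes (sham blue, IncPBF red, lungs 1 to 5 from left to right, bars give mean and SD, n = 5, the ring marks IncPBF lung 1). The groups do not overlap in 13 panels, while E2f2, Dnmt1 and Pold1 overlap.

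Checkpoint and repair genes protect stalled forks. Of the 6 tested, 4 were higher. Chek1, the kinase of the replication checkpoint, was at 1.19, 1.29, 1.80, 1.54 and 1.23 FPKM in IncPBF lungs and at 0.565, 0.733, 0.745, 0.576 and 0.582 FPKM in sham lungs. Every IncPBF lung was well above every sham lung, and the log2 fold change was 1.02 ± 0.15 (SE, adjusted p = 0.000673, limma). Clspn, the adaptor through which CHK1 is activated, was at 1.49, 1.57, 2.03, 1.68 and 1.47 FPKM against 0.644, 0.672, 1.15, 1.10 and 0.943 FPKM. Its log2 fold change was 0.83 ± 0.17 (SE, adjusted p = 0.00435, limma).

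Rad51ap1, a factor of homologous recombination and the most abundant gene of this group, was at 1.69, 1.65, 2.19, 1.76 and 1.39 FPKM in IncPBF lungs and at 1.01, 0.937, 1.46, 1.53 and 0.811 FPKM in sham lungs. IncPBF lung 5 fell within the sham range, and the log2 fold change was 0.58 ± 0.18 (SE, adjusted p = 0.0321, limma). The breast cancer genes parted ways, with Brca1 at a log2 fold change of 0.70 (adjusted p = 0.00607, limma) and Brca2 at 0.02 with a 95% interval of -0.38 to 0.41. The helicase Blm had 0.38 (adjusted p = 0.0744, limma), with IncPBF lung 1 inside the sham range. Exo1, a nuclease of mismatch repair and end resection, was below the filter. It was at 0.461 ± 0.0683 FPKM in IncPBF and 0.255 ± 0.0581 FPKM in sham (SD, n = 5), without overlap, and its two-sided exact permutation p of 0.00794 is the smallest that 5 lungs against 5 can give.

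E2F factors and cyclin E set the G1 to S transition. Of the 6 genes 5 were higher and 1 lower. E2f8, an E2F of the repressor kind whose own gene is turned on in S phase, had the largest log2 fold change of the 48 genes, 1.10 ± 0.14 (SE, adjusted p = 0.00025, limma). It was at 1.89, 1.91, 2.64, 2.12 and 1.91 FPKM in IncPBF lungs and at 0.768, 0.761, 1.16, 0.990 and 0.960 FPKM in sham lungs, with lung 3 the highest of each group. E2f8 is overlapped on the other strand by Gm2788. Its fellow repressor E2f7 stood at 0.56 and the activator E2f1 one of 0.52 (adjusted p = 0.0012, limma).

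Ccne1, cyclin E1, was at 1.73, 2.08, 1.97, 2.35 and 1.68 FPKM in IncPBF lungs and at 0.879, 1.06, 1.22, 1.24 and 0.863 FPKM in sham lungs, a log2 fold change of 0.85 ± 0.14 (SE, adjusted p = 0.00104, limma). Cyclin E2 (Ccne2) had 0.77. E2f2, classed with the activators, was the most abundant of the group and went the other way, at 7.12, 6.61, 6.64, 5.83 and 6.74 FPKM in IncPBF lungs and at 10.4, 7.53, 8.93, 6.50 and 8.55 FPKM in sham lungs. The sham lungs were scattered, and sham lung 4 lay below 4 IncPBF lungs. Its log2 fold change was -0.33 ± 0.11 (SE, adjusted p = 0.0414, limma), and it passed in 3 of the 10 fits that left out 1 lung. E2F2 is known for its part in red cell precursors. Of 5 erythroid genes tested 3 were lower in IncPBF (Hba-a1 and Alas2 among them), and Hbb-bs and Tfrc were not called. Their list summed to 333, 1792, 543, 241 and 1338 FPKM in IncPBF lungs 1 to 5. In sham lungs 1 to 5 the sums were 1391, 2051, 2221, 2177 and 1405 FPKM. E2f2 was highest in lung 1 and lowest in lung 4 of each group. The part of erythroid RNA in the E2f2 difference was not tested.

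Uhrf1 reads the hemimethylated DNA behind the fork and brings in DNMT1, the enzyme that restores the methylation. Uhrf1 (ENSMUSG00000001228, chr17:56303321-56323486) was at 6.47, 6.99, 7.98, 7.95 and 6.11 FPKM in IncPBF lungs and at 2.80, 2.92, 3.99, 3.83 and 3.61 FPKM in sham lungs. The groups were far apart, and the log2 fold change of 1.03 ± 0.12 (SE) had the smallest adjusted p of the 48 genes, 0.000108 in limma. Dnmt1 was the most abundant of the 3, at 9.94, 11.0, 11.6, 10.4 and 9.83 FPKM in IncPBF lungs and at 10.8, 9.45, 9.34, 8.91 and 10.4 FPKM in sham lungs. These overlapped, with a log2 fold change of 0.11 and a 95% interval of -0.04 to 0.26. Hells, a chromatin remodeler that aids DNA methylation, reached a log2 fold change of 0.84 (adjusted p = 0.00268, limma).

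Within a group, some lungs were high or low in many of the genes at once. The mean log2(FPKM + 0.1) of the 48 genes was 1.80 to 2.10 in IncPBF lungs and 1.16 to 1.52 in sham lungs, while the median of all genes tested was 2.48 to 2.51 in all 10 lungs. IncPBF lung 3 was the highest of its group in 34 of the 48 genes, and sham lung 3 in 23. IncPBF lung 5 was the lowest of its group in 22 genes, and sham lung 1 in 20. The highest sham lung (1.52) stayed below the lowest IncPBF lung (1.80) in this mean.

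**Figure D4:**
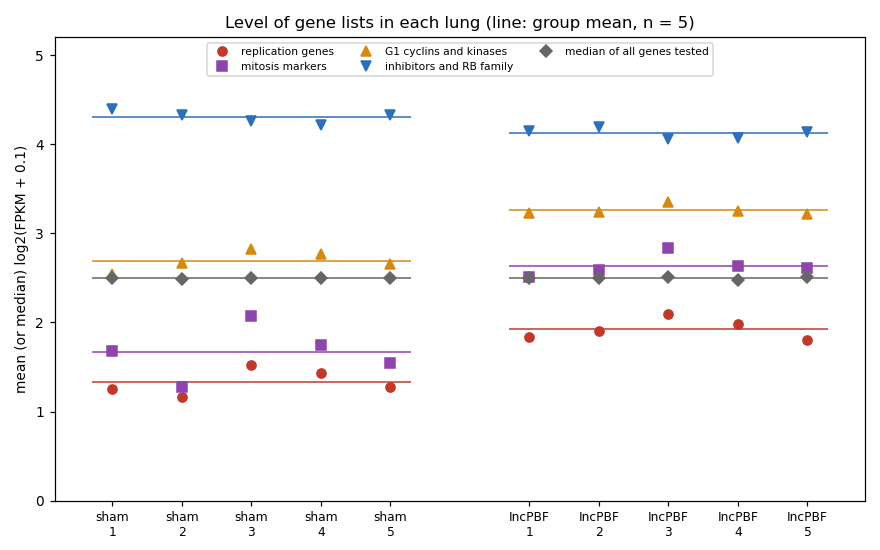
Mean log2(FPKM + 0.1) of the replication genes and of 3 related lists in each lung, with the median of all genes tested (lines give group means, n = 5). The replication genes run from 1.16 to 1.52 in sham lungs and from 1.80 to 2.10 in IncPBF lungs, while the median of all genes is level.

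Other genes of the cell cycle put these values in context. Beside the counts of each list, 16.1% of all genes tested were higher and 16.2% lower. A further 36 genes of the fork and the origin were listed, and of the 34 tested 17 were higher and none lower in limma, with a median log2 fold change of 0.21. At an unadjusted p under 0.05 these counts were 20 and 0, where 6640 of the 15388 genes tested reached it in either direction. The histone chaperone Asf1b had the smallest adjusted p (0.00011, limma), with 1.87 ± 0.219 FPKM in sham and 3.71 ± 0.461 FPKM in IncPBF (SD, n = 5), followed by Rnaseh2b (log2 fold change 0.50), Chaf1b (0.81), Wdhd1 (0.63) and Chtf18 (0.78). Pold4, the most abundant of them, had 0.09 (adjusted p = 0.413, limma). Of 12 further repair genes tested 6 were higher (Brip1, Bard1, Msh6, Rad54l and Rad51c among them) and none lower, at the adjusted and the unadjusted threshold of limma alike. Rad54l and Rad51c had sham means under 0.5 FPKM and passed the filter through their IncPBF level, and without them 4 of 10 were higher.

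Of 15 further genes of nucleotide metabolism 6 were higher and 2 lower, the latter near the share of all genes, with a median of 0.13. CTP synthase (Ctps) had a log2 fold change of 0.50, deoxycytidine kinase (Dck) 0.42, thymidylate kinase (Dtymk) 0.64 and Nme1, a nucleoside diphosphate kinase, 0.49. Samhd1, which degrades deoxynucleotides, was lower by a log2 fold change of -0.37 (adjusted p = 0.0088, limma), but -0.05 in IncPBF lung 1 alone. Paics, a purine synthesis enzyme and the most abundant, had -0.08 (adjusted p = 0.236, limma).

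Among 12 genes listed as G1 cyclins, kinases and their regulators, 10 were higher, with a median log2 fold change of 0.66. Cyclin D2 (Ccnd2) went from 19.6 ± 0.623 to 30.5 ± 1.56 FPKM and its kinase Cdk4 from 25.8 ± 2.60 to 41.3 ± 2.42 FPKM (SD, n = 5). Cdc25a, the phosphatase that activates CDK2, had a log2 fold change of 0.69 and Myc 0.61. Cyclin A2 (Ccna2) had the largest of the list, 1.13, and is a cyclin of S and G2 phase rather than of G1. The inhibitors mostly went the other way. Of 13 inhibitors and RB family genes tested 8 were lower and 3 higher. Cdkn1a (p21) went from 26.5 ± 6.72 to 13.4 ± 1.11 FPKM, and Cdkn1c (p57), Cdkn2b (p15) and Ccng2 had log2 fold changes of -0.64, -0.76 and -0.42.

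Against that direction, the CDK4 inhibitor Cdkn2c (p18) rose from 16.4 ± 1.70 to 32.2 ± 2.33 FPKM (SD, n = 5), with the smallest adjusted p of its list (1.47e-05, limma), and the RB relative Rbl1 and Btg1 were higher as well. Btg2, the most abundant of the list, stood at -0.01 (adjusted p = 0.951, limma). Among 13 further E2F and DREAM genes 5 were higher and 1 lower, with the activator E2f3 at 0.62, Foxm1 at 0.89, the E2F partner Tfdp1 at 0.36, Rbbp4 at 0.22, and Tfdp2, another partner, at -0.62.

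All 15 mitosis genes were higher without overlap, which held for 12% of all genes tested. Their median log2 fold change was 0.96, above the 0.59 of the replication genes. The difference between the lists was not tested. In IncPBF lung 1 alone against the sham lungs the median of the mitosis genes was 0.85. Cdk1 went from 2.31 ± 0.620 to 5.74 ± 0.457 FPKM and Top2a from 5.60 ± 1.33 to 11.8 ± 0.739 FPKM (SD, n = 5), and the log2 fold changes of Birc5, Mki67 and Cdc20 were 1.23, 0.95 and 0.70. Over all 114 further genes tested, 62 were higher and 11 lower, with a median of 0.29.

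**Figure D5:**
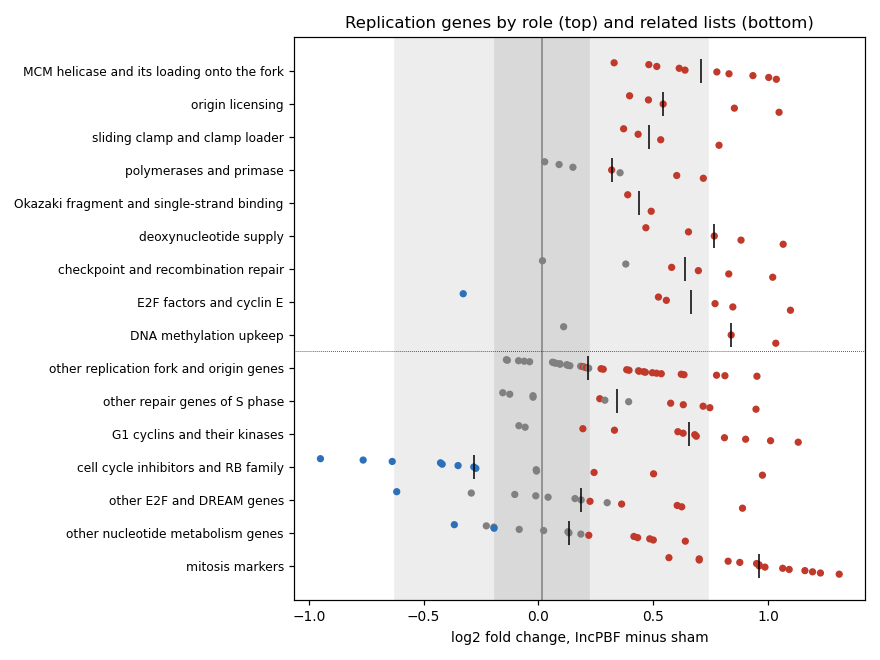
Log2 fold changes (IncPBF minus sham) of the replication genes by role, above the dotted line, and of 7 related lists below it. Each point is 1 gene (red higher, blue lower, at an adjusted p under 0.05 in limma, grey neither), black ticks are medians, and grey bands hold the middle 50% and 90% of all genes tested. The median of the mitosis genes is 0.96 and that of the inhibitors -0.28.

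Markers of cell types moved with the groups too, beside 16.1% of all genes tested that were higher and 16.2% that were lower. All 6 AT1 genes tested were lower in IncPBF (summed level 912 to 965 FPKM against 1149 to 1502 FPKM in sham), as were 3 of 6 AT2 genes (10748 to 13230 against 12837 to 16009 FPKM), 5 of 6 endothelial genes (545 to 602 against 637 to 870 FPKM) and 5 of 5 mesothelial genes tested (91.8 to 117 against 132 to 206 FPKM). Higher were 4 of 6 smooth muscle genes (313 to 608 against 112 to 246 FPKM). Their median log2 fold change was 0.94, and 0.47 in IncPBF lung 1 alone against the sham lungs. The medians of AT1, AT2, endothelial and mesothelial genes were -0.43, -0.42, -0.41 and -0.88. In IncPBF lung 1 alone these were -0.37, -0.37, -0.38 and -0.78. Fibroblast genes were mixed, with 2 higher and 1 lower of 6 (784 to 972 against 744 to 912 FPKM). Most of the AT2 sum was Sftpc, at 9583 to 14074 FPKM, which was not called (adjusted p = 0.358, limma). Of the blood lineages listed, erythroid genes summed to 241 to 1792 FPKM in IncPBF and 1391 to 2221 FPKM in sham lungs. Most of that sum was hemoglobin RNA of Hba-a1 and Hbb-bs. Klf1 was at 0.0684 to 0.625 FPKM, and Tfrc was not called (adjusted p = 0.866, limma). The sum does not show how many erythroid cells were dividing. In the other lists of blood lineages many genes stayed near 0. Of 8 thymocyte genes 6 never exceeded 0.5 FPKM, Rag1, Rag2, Dntt and Ptcra among them, with a summed level of 2.56 to 3.80 FPKM in IncPBF and 3.004 to 4.28 FPKM in sham. Of 5 germinal center B cell genes 4 did not either, and S1pr2, the only one tested, was lower (sums 6.69 to 7.63 against 7.97 to 10.1 FPKM). The bone marrow genes Mpo, Elane and Ctsg stayed under 0.5 FPKM, and Prtn3 was at 0.0924 to 0.544 FPKM. Of the 2 genes of that list tested Kit was lower and Cd34 higher (sums 96.5 to 103 against 89.9 to 103 FPKM). Kit and Cd34 made up nearly all of that sum, so it is no measure of bone marrow progenitors.

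Summed levels of T cell genes were 9.92 to 11.5 FPKM in IncPBF and 9.26 to 12.1 FPKM in sham lungs, and those of B cell genes 29.4 to 37.5 and 33.3 to 44.9 FPKM. Macrophage genes summed to 36.9 to 53.4 and 40.7 to 59.1 FPKM, neutrophil genes to 36.8 to 71.5 and 27.2 to 57.5 FPKM, ciliated cell genes to 108 to 139 and 87.1 to 139 FPKM, and cardiac muscle genes to 32.4 to 98.0 and 7.53 to 46.2 FPKM. None of the 33 genes tested in these 6 lists passed the adjusted threshold in limma, and at an unadjusted p under 0.05 none was higher and 4 were lower. Tubb4b alone held 86.0 to 110 FPKM of the ciliated cell sum. The part of cell composition in the replication gene differences was not tested.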

How the data were processed

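Lungs of P14 mice, 5 IncPBF and 5 sham, were profiled by bulk RNA-sequencing. The authors deposited 1 table of FPKM for 54532 genes. The library kit was NEBNext Ultra and the instrument a NovaSeq. The submitters' processing notes name Bowtie 0.12.2 and the builds GRCm38, mm10 and hg38, without roles, and the counting software is not given in the sources used here. GENCODE M21 on GRCm38 places 98.3% of the shared genes where the table does, 49 of the 50 replication genes included. Column names match the titles for sham but not for IncPBF, whose 5 columns were placed by exclusion. FPKM times gene length gave whole fragments for 100% of the values (tolerance 0.01), from 16103423 to 20318525 fragments per lung, so 1 fragment on a gene of 1 kb was worth 0.0482 to 0.0580 FPKM. Fragments carry no molecular identifiers, and p-values measure the spread between these lungs, whose litters and dates of surgery the labels do not give.

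Genes averaging 0.5 FPKM or more entered limma 3.58.1 (lmFit, eBayes with a trend, no covariates, R 4.3.3) as log2(FPKM + 0.1), and Benjamini-Hochberg adjustment ran over all 15388 genes. Intervals are 95% intervals of limma. Single genes below the filter were compared by an exact permutation test (252 assignments, smallest two-sided p 0.00794). The step was tested on simulated data. Tables and figures used Python 3.11.15, pandas 2.3.3 and matplotlib 3.10.9. Promoters are RefSeq windows on GRCm38.p6. For 36 of the 42 found, a short stretch after the start occurs in a GENCODE transcript of the gene. It may lie anywhere in that transcript, so the start itself was not checked. Ccne2, Gins2, Gmnn, Mcm4, Exo1, Gins1, Prim2 and Pole had no window there. The table's gene spans overlap another gene for 26 of the 50 replication genes, a protein-coding one for 12.

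The replication genes, the role groups and the 7 related and 16 marker lists were chosen with earlier results of these data known. Values in every lung are given for the most abundant gene of each role group and its 2 genes of smallest p (1 in groups of 3). Related lists name up to 5 called genes of smallest adjusted p and the most abundant gene, and any further names were chosen after their values were seen. Alternatives were the pseudocount (1 or 0.01), the filter (mean of at least 1, or none), 3 scalings (median centring, an equal total per lung, quantile normalization), a block for the replicate number, eBayes without the trend, a covariate of log2 Xist FPKM, lungs with Xist under 1 FPKM only, limma-voom on the recovered fragments, and each lung left out in turn. A smoothed correction for GC content and length (span 0.5) was chosen after seeing the data.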

Additional observations from a re-analysis of the deposited data

Results flagged for a closer look

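In 6 of 100 groups of 5 lungs, 1 lung lay so far from the other 4 that its gap exceeded Dixon's 95% limit of 0.71 of the group's range. Chance gives about 1 in 20. IncPBF lung 3 was the high one in 3 genes, at 7.50 FPKM of Mcm2 (the others 6.18 to 6.31), 16.6 FPKM of Mcm3 (13.6 to 14.5) and 9.22 FPKM of Pola2 (6.96 to 7.60). Sham lung 2 was the low one in 2 genes, at 8.65 FPKM of Mcm4 (the others 10.3 to 10.9) and 0.463 FPKM of Brca2 (0.608 to 0.662). IncPBF lung 1 had 2.87 FPKM of Rfc4, where the other IncPBF lungs had 4.27 to 4.80.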

How the results depend on the processing

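Both alternatives on sex-linked RNA rest mainly on IncPBF lung 1 against the sham lungs, and both ended most calls. With the Xist covariate 5 replication genes were higher and 0 lower. Of the related genes 12 were higher and 2 lower, where 2.13% of all genes tested were higher and 2.68% lower. With low-Xist lungs only, the median log2 fold change was 0.51 in the replication genes and 0.28 in the related genes. Pold1 and Brca2 then turned negative, at -0.15 and -0.25 with the covariate and -0.15 and -0.24 in low-Xist lungs. Brca2 also did so under quantile normalization (-0.074).

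The other alternatives, lungs left out aside, kept the direction of every replication gene but Brca2, and 35 genes stayed past the adjusted threshold in each of them that tested them. With each lung left out in turn, 35 to 40 replication genes were higher (35 without IncPBF lung 3) and 0 to 1 lower, their median was 0.51 to 0.66, Pold1 ran from -0.038 to 0.071 and Brca2 from -0.063 to 0.082. Of the related genes 55 to 64 were higher and 10 to 12 lower, with a median of 0.26 to 0.31. E2f2 lost its call, leaving 0 lower genes, without a filter, with an equal total per lung, under quantile normalization, without the trend and with the correction for GC content and length. Without a filter Rfc4, Pola1, Pole, Rad51ap1 and E2f7 lost theirs too. A pseudocount of 1 lowered the median to 0.43, since it shrinks low genes. An equal total per lung raised the median of all genes from 0.01 to 0.09 and the share of higher calls among all genes from 49.9% to 66.6%, and called Pola2, Blm and Dnmt1 higher. The cause of the other changes was not tested.

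Same-numbered lungs did not deviate together (correlations -0.07 to 0.09, and 2 of 5 numbers correlated best with themselves), so the numbers share no known pairing. With the replicate number as a block Pola1 and Pole lost their calls, at log2 fold changes of 0.32 and 0.60, and the other 39 of the 41 called genes kept theirs. The 10 fragments of Orc1 in its lowest lung mark where depth limits these values.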
